A study of Arabidopsis thaliana with 48 samples.

Results

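Jasmonate output in Arabidopsis thaliana seedlings was followed through 8 genes, found by locus identifier among the 33602 loci of the deposited abundance table. VSP1 (AT5G24780), VSP2 (AT5G24770), TAT3 (AT2G24850) and CLH1 (AT1G19670) were taken as the MYC branch. The plant defensins PDF1.2a (AT5G44420), PDF1.2b (AT2G26020), PDF1.2c (AT5G44430) and PDF1.3 (AT2G26010) were taken as the branch that needs ethylene. All 8 had a row in the table. RNA was sequenced from roots and from shoots (labelled leaf) of seedlings aged 18 days on agarose plates. The genotypes were eil3 eil1, which carries both insertions, eil3 (T-DNA line SALK_089129 in AT1G73730), eil1 (T-DNA line SALK_042113 in AT2G27050) and the wild type Col-0. Low-sulfate plates (-S) held 0.75 mM MgCl2 with 0.015 mM MgSO4 and full-sulfate plates (+S) held 0.75 mM MgSO4, so the sulfate and chloride supply changed at once. Each of the 16 groups of genotype, sulfate and organ had 3 libraries labelled as biological replicates. The labels do not say how many seedlings were pooled in a library, and each gene was tested with 1 insertion allele.

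Jasmonate acts when its isoleucine conjugate binds the receptor COI1, which sends the JAZ repressors to degradation and frees the transcription factors they hold. One set of these factors, MYC2 with MYC3 and MYC4, is known for the wound and herbivore type of response, with the vegetative storage proteins among its targets. The other set, ERF1 and ORA59, is known for the response to necrotrophic fungi, binds the GCC-box and raises the antifungal defensins, for which ethylene signalling through EIN3 and EIL1 is needed as well. The branches are known to restrain each other. EIL3, also called SLIM1, belongs to the EIN3 family and is known as a regulator of the response to sulfate deficiency.

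Library totals ran between 26615772 and 38269946 estimated counts in roots and between 27029088 and 37809216 in shoots. Levels are given as CPM, counts scaled to library size with TMM factors set within an organ, and differences as log2 changes with their approximate SE. Every adjusted p is from the quasi-likelihood F test of edgeR, with the Benjamini-Hochberg method applied to all loci in a fit, and "called" means an adjusted p under 0.05. The organ labels matched their markers, since 14 genes of green tissue summed to between 644 and 2759 CPM in roots and between 29568 and 115165 CPM in shoots. Transcripts of the mutated genes did not follow the genotype labels throughout. EIL1 averaged 27.0 ± 1.12 CPM in -S shoots of eil3 eil1, 94.9 ± 12.7 in eil3, 92.4 ± 5.98 in eil1 and 105 ± 5.14 in Col-0 (SD, n = 3 each). EIL3 averaged 29.97 ± 2.86 CPM in -S shoots of eil3 eil1, 19.2 ± 2.57 in eil3, 23.9 ± 2.23 in eil1 and 21.9 ± 1.41 in Col-0. EIL1 thus differed between eil3 eil1 and eil1, though both are labelled with the same insertion in it. In -S roots EIL1 averaged 19.5 ± 2.15 CPM in eil3 eil1, 43.0 ± 5.72 in eil1 and 55.9 ± 4.27 in Col-0. EIL3 in -S roots averaged 21.2 ± 1.09 CPM in eil3 eil1, 14.8 ± 2.60 in eil3 and 22.2 ± 0.649 in Col-0. It thus differed between eil3 eil1 and eil3, which are labelled with the same insertion in EIL3. The causes of these differences were not tested. An insertion can leave transcript on either side of it, and the insertion sites were not given in the sources used here. The names eil3 eil1, eil3 and eil1 below therefore stand for the libraries labelled so.

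The defensins are similar copies, so reads can move between them in counting, and their sequences are shown for that reason. PDF1.2a and PDF1.2c lie side by side on chromosome 5 and PDF1.2b and PDF1.3 on chromosome 2. The coding sequences below, each joined over 2 exons, are from RefSeq (TAIR10.1), lie within chr5:17907216-17907550 on the minus strand, chr2:11089281-11089597 on the plus strand, chr5:17909092-17909444 on the minus strand and chr2:11087411-11087755 on the plus strand, and carry in capitals the bases that differ from PDF1.2a.
PDF1.2a: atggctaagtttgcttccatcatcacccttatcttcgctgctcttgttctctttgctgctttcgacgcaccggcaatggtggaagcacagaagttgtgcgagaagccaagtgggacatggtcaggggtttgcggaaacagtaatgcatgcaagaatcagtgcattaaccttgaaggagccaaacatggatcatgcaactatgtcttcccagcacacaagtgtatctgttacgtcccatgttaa
PDF1.2b: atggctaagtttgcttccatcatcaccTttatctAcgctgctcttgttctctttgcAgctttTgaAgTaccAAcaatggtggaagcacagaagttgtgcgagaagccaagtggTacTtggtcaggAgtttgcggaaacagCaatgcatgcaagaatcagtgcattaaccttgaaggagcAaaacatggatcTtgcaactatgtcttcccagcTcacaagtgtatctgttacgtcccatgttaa
PDF1.2c: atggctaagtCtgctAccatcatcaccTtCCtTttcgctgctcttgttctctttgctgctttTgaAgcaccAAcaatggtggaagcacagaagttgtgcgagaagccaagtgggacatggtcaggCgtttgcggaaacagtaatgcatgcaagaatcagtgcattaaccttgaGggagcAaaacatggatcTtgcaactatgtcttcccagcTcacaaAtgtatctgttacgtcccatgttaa
PDF1.3: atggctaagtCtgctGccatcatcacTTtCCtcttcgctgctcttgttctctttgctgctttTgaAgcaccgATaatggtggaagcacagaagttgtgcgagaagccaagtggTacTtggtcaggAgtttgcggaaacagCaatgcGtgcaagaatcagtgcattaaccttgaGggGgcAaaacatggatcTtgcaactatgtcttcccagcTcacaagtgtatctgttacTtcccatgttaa
Each coding sequence had 243 bases, and identity to PDF1.2a was 93.8% for PDF1.2b, 93.4% for PDF1.2c and 91.4% for PDF1.3. Between 8.9% and 14.4% of the 31-base words of a defensin gene recurred in another of the 4, and between 21.6% and 39.0% of those of its coding sequence did. VSP1 and VSP2, close to each other on chromosome 5 at chr5:8507590-8509201 and chr5:8500468-8502224, shared 88.1% of their coding bases, and 4.6% of VSP1's words and 4.2% of VSP2's recurred in the other. The values of these copies stay uncertain to the extent that reads were divided between them. Estimates that were not whole, as divided reads can give, occurred in 4 of 48 libraries for PDF1.2b and for PDF1.3. They occurred in 1 library for VSP1 and for VSP2, and in 0 for PDF1.2a and PDF1.2c. TAT3 lies at chr2:10582074-10585216 and CLH1 at chr1:6803486-6805092.

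Promoter windows of 250 bases before the annotated start were searched on both strands for the GCC-box GCCGCC, the G-box CACGTG, the related CACGTT and the EIN3-type core ATGTA. The windows of PDF1.2a, PDF1.2b and VSP1 are shown because they held at least 1 of the rarer motifs, and that of PDF1.2c as a copy without them. Capitals mark GCCGCC and CACGTT, and the windows are PDF1.2a chr5:17907639-17907888 (minus strand), PDF1.2b chr2:11088873-11089122 (plus), PDF1.2c chr5:17909508-17909757 (minus) and VSP1 chr5:8509202-8509451 (minus).
PDF1.2a: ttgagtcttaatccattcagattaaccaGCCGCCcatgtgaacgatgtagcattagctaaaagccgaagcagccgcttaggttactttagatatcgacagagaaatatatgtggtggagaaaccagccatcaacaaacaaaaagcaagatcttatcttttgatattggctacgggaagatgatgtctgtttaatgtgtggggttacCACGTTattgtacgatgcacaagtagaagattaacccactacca
PDF1.2b: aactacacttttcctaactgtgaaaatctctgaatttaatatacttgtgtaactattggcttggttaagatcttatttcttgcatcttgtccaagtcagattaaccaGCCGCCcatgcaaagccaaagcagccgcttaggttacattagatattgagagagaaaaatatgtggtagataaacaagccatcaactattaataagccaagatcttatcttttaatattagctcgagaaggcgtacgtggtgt
PDF1.2c: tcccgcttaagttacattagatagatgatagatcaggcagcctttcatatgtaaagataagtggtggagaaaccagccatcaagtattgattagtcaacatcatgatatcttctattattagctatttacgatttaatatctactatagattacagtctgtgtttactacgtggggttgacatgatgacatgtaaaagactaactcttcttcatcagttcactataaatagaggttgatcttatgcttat
VSP1: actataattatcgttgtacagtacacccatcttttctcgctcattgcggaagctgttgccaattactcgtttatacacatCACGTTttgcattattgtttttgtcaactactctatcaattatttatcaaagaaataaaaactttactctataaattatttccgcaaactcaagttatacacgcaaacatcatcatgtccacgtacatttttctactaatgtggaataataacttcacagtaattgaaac
GCCGCC lay 222 to 217 bases before the start in PDF1.2a and 143 to 138 bases before it in PDF1.2b, and 1.87% of 27443 promoters held it. CACGTT lay 170 to 165 bases before the start in VSP1 and 44 to 39 bases before it in PDF1.2a, and 7.54% of promoters held it. CACGTG was in 0 of the 8 windows and in 6.49% of promoters. ATGTA was in 5 of the 8 and in 52.05% of promoters. A match is a description of the letters only.

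At low sulfate MYC-branch genes alone were called in Col-0 shoots, as higher, and genes of both branches were called in eil3 eil1 shoots, as lower. In Col-0, 3 of the 4 MYC-branch members were higher at low sulfate (VSP1, VSP2 and CLH1), where 16.9% of 21697 loci tested were higher, and 0 of 4 defensins were called, with 0 at an unadjusted p under 0.05 and 0 by DESeq2. In eil1, CLH1 was higher (14.4% of loci) while VSP1 and PDF1.2a were lower (12.9% of loci). In eil3, 3 of 4 defensins were lower (16.6% of loci) and 0 of 4 MYC-branch members were called, with 2 at an unadjusted p under 0.05 (VSP1 and VSP2) and 0 by DESeq2. In eil3 eil1, 7 of the 8 genes were lower, all but PDF1.2b, where 28.3% of loci were lower. The median log2 change over the MYC-branch members and over the defensins was -1.69 and -3.13 in eil3 eil1, -0.60 and -1.78 in eil3, 0.23 and -1.12 in eil1, and 1.29 and -0.08 in Col-0, while the median over all loci lay between 0.00 and 0.02.

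**Figure D1:**
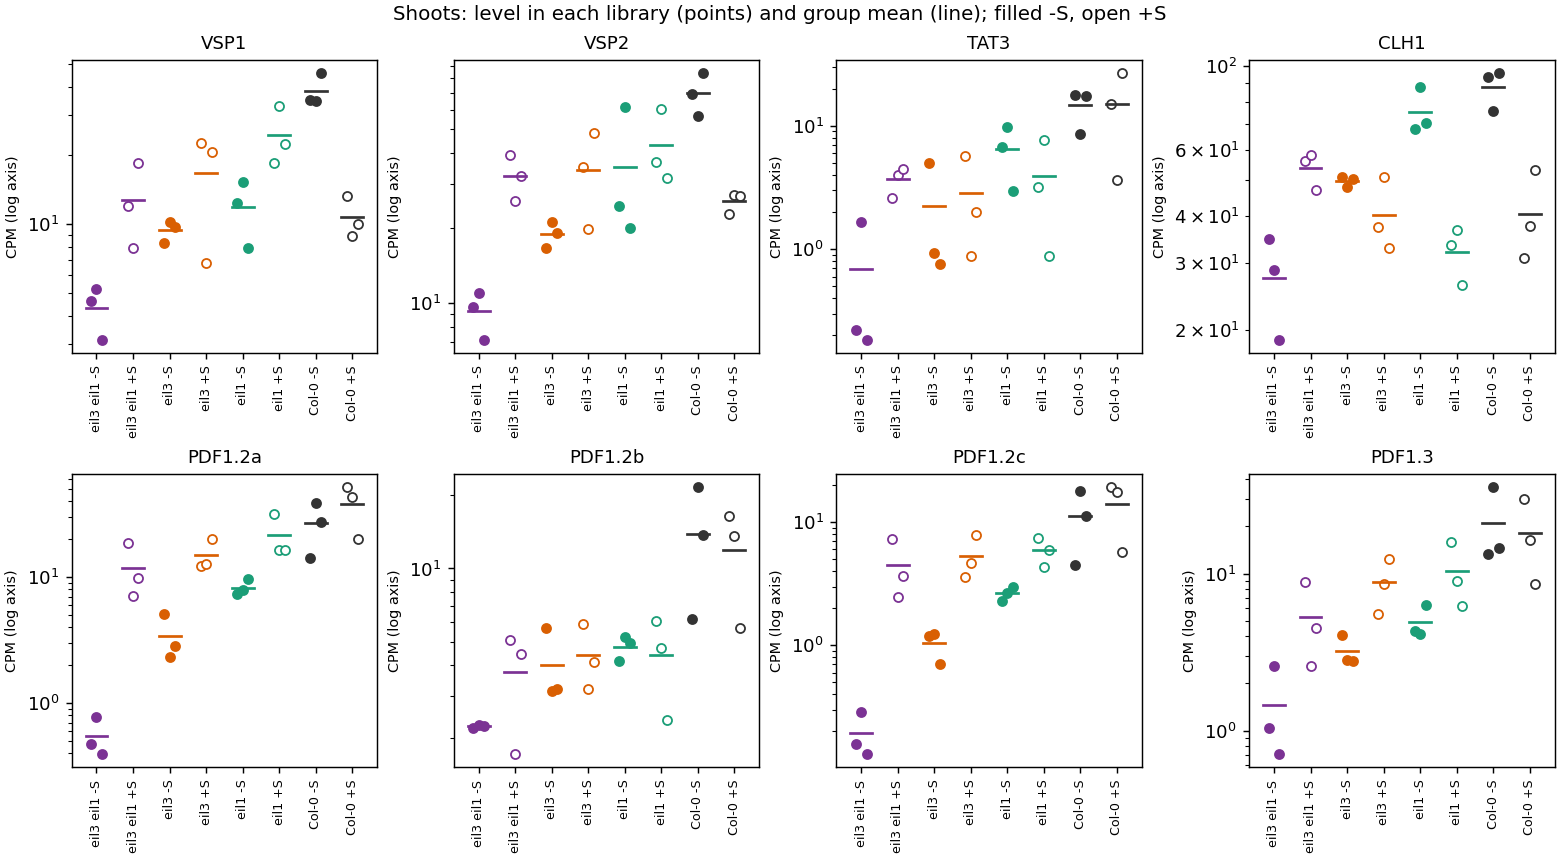
Level of each gene in every shoot library (points, CPM on a log axis) with the group mean (line), filled for -S and open for +S, by genotype as labelled. VSP1, VSP2 and CLH1 are higher in Col-0 at -S than at +S, and every gene is lower at -S in eil3 eil1 than at -S in Col-0.

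VSP1 encodes a vegetative storage protein of the acid phosphatase family. In eil3 eil1 it had 4.62, 5.22 and 3.14 CPM in -S shoots, against 12, 7.9 and 18.6 CPM in +S shoots. The eil3 libraries had 8.3, 10.3 and 9.72 CPM in -S shoots, against 22.8, 6.78 and 20.6 CPM in +S shoots. Those of eil1 had 12.5, 15.3 and 7.89 CPM in -S shoots, against 18.6, 32.8 and 22.4 CPM in +S shoots. The -S values all lay below the +S values in eil3 eil1 and eil1, and overlapped them in eil3 through +S replicate 2. Col-0 had 35.1, 34.5 and 45.7 CPM in -S shoots, against 13.3, 8.87 and 10.01 CPM in +S shoots, so all 3 -S libraries stood above all 3 +S libraries. The log2 change was -1.57 ± 0.37 (adjusted p = 0.00111) in eil3 eil1, -0.82 ± 0.35 (adjusted p = 0.0771) in eil3, -1.05 ± 0.35 (adjusted p = 0.0285) in eil1 and 1.83 ± 0.35 (adjusted p = 0.000387) in Col-0. Without eil1 +S replicate 2 or -S replicate 1 or 3 the eil1 call was lost (adjusted p up to 0.149), and without eil3 +S replicate 2 the gene was called in eil3 (-1.20, adjusted p = 0.00478).

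VSP2, the nearby copy, encodes a storage protein with known anti-insect phosphatase activity. In eil3 eil1 it had 9.65, 11 and 7.13 CPM in -S shoots, against 39.2, 25.6 and 32.4 CPM in +S shoots. The eil3 libraries had 16.7, 21.2 and 19.2 CPM in -S shoots, against 35.2, 19.8 and 48.1 CPM in +S shoots. The eil1 libraries had 24.7, 61.4 and 20.1 CPM in -S shoots, against 37, 60.6 and 32 CPM in +S shoots. The groups were apart only in eil3 eil1, overlapped slightly in eil3, and overlapped fully in eil1, where replicate 2 was high at both sulfate levels. Col-0 had 69.4, 56.6 and 83.9 CPM in -S shoots, against 22.8, 27.2 and 26.9 CPM in +S shoots, again without overlap and with -S high. The log2 change was -1.81 ± 0.36 (adjusted p = 0.000185) in eil3 eil1, -0.85 ± 0.34 (adjusted p = 0.0614) in eil3, -0.29 ± 0.34 (adjusted p = 0.568) in eil1 and 1.45 ± 0.34 (adjusted p = 0.00233) in Col-0. The gene was called as lower in eil1 without -S replicate 2 (-0.95, adjusted p = 0.0269) and in eil3 without +S replicate 2 (-1.13, adjusted p = 0.0175), while in eil1 without +S replicate 2 the change was 0.04.

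CLH1 encodes chlorophyllase 1, which is inducible by jasmonate and coronatine. The eil3 eil1 libraries had 34.8, 28.8 and 18.9 CPM in -S shoots, against 56, 58.1 and 46.9 CPM in +S shoots, with every -S library low. In eil3 it had 50.7, 47.7 and 50.2 CPM in -S shoots, against 37.5, 50.8 and 32.9 CPM in +S shoots, with overlap. In eil1 it had 68, 87.9 and 70.8 CPM in -S shoots, against 33.6, 36.8 and 26.3 CPM in +S shoots. In Col-0 it had 93.2, 75.7 and 95.5 CPM in -S shoots, against 30.9, 37.7 and 53.1 CPM in +S shoots. The -S libraries of eil1 and of Col-0 were all high, so CLH1 was higher at low sulfate in these genotypes and lower in eil3 eil1. The log2 change was -0.97 ± 0.21 (adjusted p = 0.00038) in eil3 eil1, 0.29 ± 0.20 (adjusted p = 0.281) in eil3, 1.23 ± 0.21 (adjusted p = 0.000176) in eil1 and 1.12 ± 0.20 (adjusted p = 0.000226) in Col-0.

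TAT3 encodes a tyrosine aminotransferase-like protein that is used as a jasmonate and wound marker, and it was the most scattered of the MYC-branch members. In eil3 eil1 it had 0.221, 1.67 and 0.185 CPM in -S shoots, against 2.58, 4.0 and 4.47 CPM in +S shoots. In eil3 it had 5.03, 0.922 and 0.763 CPM in -S shoots, against 5.73, 0.876 and 2.0 CPM in +S shoots. In eil1 it had 6.8, 9.85 and 2.98 CPM in -S shoots, against 3.2, 7.64 and 0.886 CPM in +S shoots. The groups were apart only in eil3 eil1, where -S was low. Col-0 had 17.9, 8.54 and 17.4 CPM in -S shoots, against 15, 3.62 and 26.6 CPM in +S shoots, with full overlap. The log2 change was -2.33 ± 0.96 (adjusted p = 0.0406) in eil3 eil1, and it was -0.38 ± 0.87 (adjusted p = 0.774) in eil3, 0.74 ± 0.81 (adjusted p = 0.539) in eil1 and -0.03 ± 0.75 (adjusted p = 0.978) in Col-0. The eil3 eil1 call was lost without +S replicate 2 or 3 or -S replicate 1 or 3 (adjusted p up to 0.137).

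PDF1.2a encodes a cysteine-rich antifungal peptide and is the usual marker of the ethylene and jasmonate branch. The eil3 eil1 libraries had 0.475, 0.774 and 0.396 CPM in -S shoots, against 18.5, 7.02 and 9.85 CPM in +S shoots. The eil3 libraries had 5.09, 2.31 and 2.82 CPM in -S shoots, against 12.2, 12.7 and 19.9 CPM in +S shoots. The eil1 libraries had 7.31, 7.86 and 9.63 CPM in -S shoots, against 31.5, 16.4 and 16.4 CPM in +S shoots. In all 3 mutant genotypes every -S library lay below every +S library. Col-0 had 14.1, 38.8 and 27.4 CPM in -S shoots, against 51.6, 43 and 20.02 CPM in +S shoots, and its groups overlapped. The log2 change was -4.40 ± 0.56 (adjusted p = 8.12e-07) in eil3 eil1, -2.12 ± 0.44 (adjusted p = 0.000864) in eil3, -1.37 ± 0.41 (adjusted p = 0.0155) in eil1 and -0.52 ± 0.38 (adjusted p = 0.315) in Col-0. The eil1 call was lost without +S replicate 1 or -S replicate 1 (adjusted p up to 0.104).

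PDF1.2c, the neighbour of PDF1.2a, followed it closely. In eil3 eil1 it had 0.158, 0.29 and 0.132 CPM in -S shoots, against 7.35, 2.48 and 3.66 CPM in +S shoots. In eil3 it had 1.19, 1.23 and 0.705 CPM in -S shoots, against 3.57, 4.64 and 7.79 CPM in +S shoots. In eil1 it had 2.29, 2.66 and 2.98 CPM in -S shoots, against 7.43, 4.28 and 5.93 CPM in +S shoots. In all 3 mutant genotypes the -S libraries again lay below the +S libraries. Col-0 had 4.48, 17.8 and 11.1 CPM in -S shoots, against 19.1, 17.6 and 5.73 CPM in +S shoots, with overlap. The log2 change was -4.49 ± 0.67 (adjusted p = 6.34e-06) in eil3 eil1, -2.34 ± 0.53 (adjusted p = 0.00173) in eil3, -1.15 ± 0.48 (adjusted p = 0.0806) in eil1 and -0.36 ± 0.44 (adjusted p = 0.567) in Col-0.

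PDF1.3 and PDF1.2b are the pair on chromosome 2, and their estimated changes in eil3 eil1 were smaller than those of PDF1.2a and PDF1.2c, a difference that was not tested. PDF1.3 in eil3 eil1 had 1.04, 2.59 and 0.713 CPM in -S shoots, against 8.84, 2.58 and 4.5 CPM in +S shoots. The eil3 libraries had 4.08, 2.83 and 2.76 CPM in -S shoots, against 5.5, 8.63 and 12.4 CPM in +S shoots. The eil1 libraries had 4.3, 4.1 and 6.29 CPM in -S shoots, against 16, 9.03 and 6.2 CPM in +S shoots. Only the eil3 groups were apart, with -S low. Col-0 had 13.3, 35.4 and 14.6 CPM in -S shoots, against 29.8, 16.4 and 8.53 CPM in +S shoots, with overlap. The log2 change of PDF1.3 was -1.86 ± 0.58 (adjusted p = 0.00905) in eil3 eil1, -1.44 ± 0.53 (adjusted p = 0.0411) in eil3, -1.08 ± 0.51 (adjusted p = 0.127) in eil1 and 0.20 ± 0.48 (adjusted p = 0.784) in Col-0. The eil3 eil1 call was lost without +S replicate 1 (adjusted p = 0.0896) and the eil3 call without +S replicate 2 or 3 or any -S replicate (adjusted p up to 0.157).

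PDF1.2b in eil3 eil1 had 2.21, 2.27 and 2.24 CPM in -S shoots, against 5.07, 1.73 and 4.44 CPM in +S shoots. In eil3 it had 5.7, 3.14 and 3.2 CPM in -S shoots, against 5.93, 3.18 and 4.12 CPM in +S shoots. In eil1 it had 4.15, 5.23 and 4.93 CPM in -S shoots, against 6.06, 4.72 and 2.39 CPM in +S shoots. Its groups overlapped in all 3. Col-0 had 6.18, 21.5 and 13.7 CPM in -S shoots, against 16.5, 13.6 and 5.69 CPM in +S shoots, also with overlap. PDF1.2b was not called in any genotype, with log2 changes of -0.75 ± 0.47 (adjusted p = 0.172) in eil3 eil1, -0.14 ± 0.45 (adjusted p = 0.839) in eil3, 0.12 ± 0.45 (adjusted p = 0.871) in eil1 and 0.20 ± 0.42 (adjusted p = 0.744) in Col-0.

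**Figure D2:**
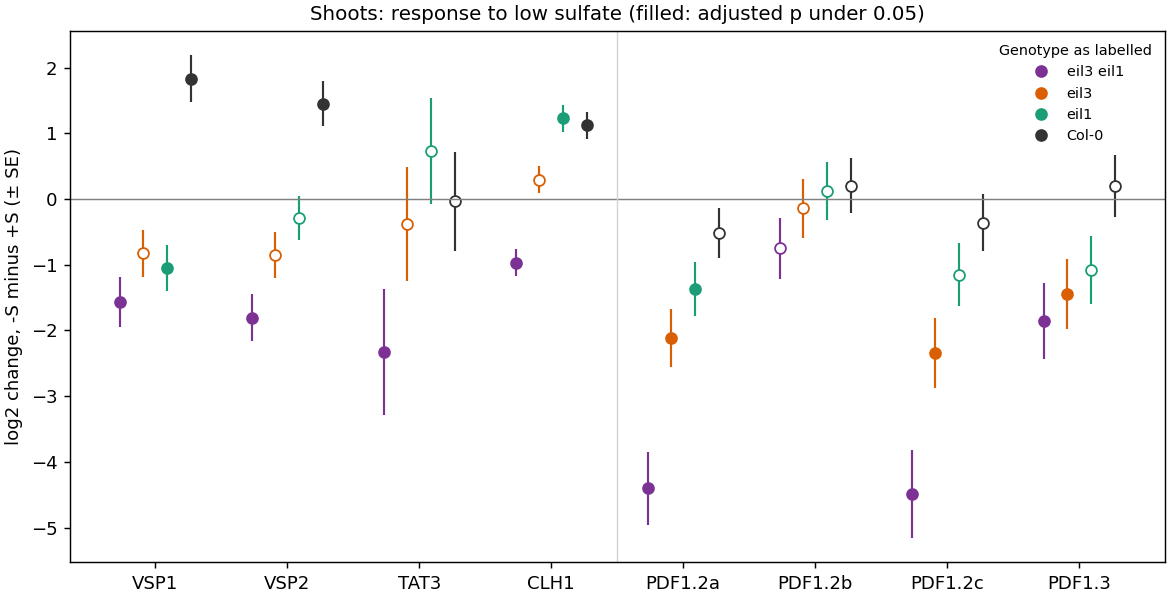
Log2 change at low sulfate (-S minus +S, ± SE) of each gene in shoots, by genotype as labelled, with filled points for adjusted p under 0.05. VSP1 and VSP2 are positive only in Col-0 among the called points, and PDF1.2a and PDF1.2c are lowest in eil3 eil1, at -4.40 and -4.49.

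Whether a response differed from that of Col-0 was tested as the genotype by sulfate interaction, (mutant -S minus +S) minus (Col-0 -S minus +S). In eil3 eil1 the difference was called for 6 of 8 genes, where 16.9% of loci were called in this direction. It was -3.40 ± 0.51 (adjusted p = 2.96e-05) for VSP1, -3.26 ± 0.50 (adjusted p = 3.21e-05) for VSP2 and -2.09 ± 0.29 (adjusted p = 1.14e-05) for CLH1. It was -3.88 ± 0.69 (adjusted p = 0.000167) for PDF1.2a, -4.13 ± 0.82 (adjusted p = 0.000478) for PDF1.2c and -2.06 ± 0.75 (adjusted p = 0.037) for PDF1.3. Both branches were therefore among the called genes, and TAT3 (-2.30 ± 1.22, adjusted p = 0.148) and PDF1.2b (-0.95 ± 0.63, adjusted p = 0.249) were not. In eil3 only the storage proteins were called, VSP1 with -2.66 ± 0.50 (adjusted p = 0.00644) and VSP2 with -2.30 ± 0.48 (adjusted p = 0.0148), where 1.03% of loci were. PDF1.2a had -1.60 ± 0.58 (adjusted p = 0.181) and PDF1.2c -1.99 ± 0.69 (adjusted p = 0.155). The median in eil3 was -1.56 over the MYC-branch members and -1.62 over the defensins. There 6 of 8 genes had an unadjusted p under 0.05, beside 3311 of 21697 loci. In eil1 VSP1 alone was called, with -2.89 ± 0.49 (adjusted p = 0.0464), among 0.0184% of loci, or 4 of 21697, and VSP2 had -1.74 ± 0.48 (adjusted p = 0.207). Without any one of 9 of the 12 libraries the eil1 call of VSP1 was lost (adjusted p up to 0.111), and without eil1 -S replicate 2 VSP2 was called too (-2.40, adjusted p = 0.0368). In eil3 eil1 the PDF1.3 call was lost without Col-0 +S replicate 2 or 3, Col-0 -S replicate 2, eil3 eil1 +S replicate 1 or eil3 eil1 -S replicate 1 or 3 (adjusted p up to 0.152) and when the fit held just eil3 eil1 and Col-0 shoots (-2.06, adjusted p = 0.0722), and TAT3 was called without eil3 eil1 -S replicate 2 (-4.13, adjusted p = 0.0418).

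At low sulfate all 8 transcripts were called as lower in eil3 eil1 and in eil3 shoots than in Col-0 shoots, and 1 was in eil1 shoots. The adjustment ran within each comparison, and eil3 was not tested against eil1. In eil3 eil1, where 26.1% of loci were lower, the largest differences were in the defensins, PDF1.2c with -5.78 ± 0.65 (adjusted p = 2.48e-07) and PDF1.2a with -5.58 ± 0.55 (adjusted p = 4.14e-08). The storage proteins differed by -3.15 ± 0.38 (adjusted p = 5.89e-07) for VSP1 and -2.91 ± 0.37 (adjusted p = 1.06e-06) for VSP2, and CLH1 by -1.68 ± 0.21 (adjusted p = 8.46e-07). TAT3 differed by -4.33 ± 0.94 (adjusted p = 0.000612), PDF1.2b by -2.62 ± 0.46 (adjusted p = 6.88e-05) and PDF1.3 by -3.83 ± 0.58 (adjusted p = 1.11e-05). All 8 calls held without any 1 library.

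In eil3, where 8.69% of loci were lower, VSP1 differed from Col-0 by -2.02 ± 0.35 (adjusted p = 0.000609), VSP2 by -1.88 ± 0.35 (adjusted p = 0.000973), CLH1 by -0.83 ± 0.20 (adjusted p = 0.00714) and TAT3 by -2.70 ± 0.84 (adjusted p = 0.03). PDF1.2a differed by -2.97 ± 0.44 (adjusted p = 0.000135), PDF1.2c by -3.41 ± 0.53 (adjusted p = 0.000188), PDF1.3 by -2.70 ± 0.53 (adjusted p = 0.00166) and PDF1.2b by -1.78 ± 0.44 (adjusted p = 0.00801). The TAT3 call was lost without Col-0 replicate 1 or 3 or eil3 replicate 2 or 3 (adjusted p up to 0.136), and that of PDF1.2b without Col-0 replicate 2 or eil3 replicate 3 (adjusted p up to 0.0639).

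In eil1 1 gene was called, VSP1 with -1.69 ± 0.35 (adjusted p = 0.0314), where 0.350% of loci were lower, and the call was lost without any 1 of the 6 libraries (adjusted p up to 0.15). At an unadjusted p under 0.05 there were 6 of 8 genes, beside 3102 of 21697 loci. The defensin differences were negative and missed the threshold. PDF1.2c had -2.07 ± 0.48 (adjusted p = 0.0509), PDF1.2a -1.69 ± 0.41 (adjusted p = 0.0586), PDF1.3 -2.10 ± 0.51 (adjusted p = 0.0617) and PDF1.2b -1.53 ± 0.43 (adjusted p = 0.108). Without Col-0 replicate 1 PDF1.2c was called (-2.45, adjusted p = 0.0322), and DESeq2 called PDF1.2a, PDF1.2c and PDF1.3 beside VSP1. VSP2 had -0.98 ± 0.34 (adjusted p = 0.182), TAT3 -1.16 ± 0.77 (adjusted p = 0.512) and CLH1 -0.22 ± 0.20 (adjusted p = 0.648).

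At full sulfate the MYC-branch members were not called in any mutant, and the genes called were defensins. TAT3, of the MYC branch, had estimates of -2.03 in eil3 eil1 and -2.36 in eil3 without a call. The branches were not tested against each other. In eil3 eil1 all 4 defensins were lower than in Col-0, where 4.70% of loci were. PDF1.3 had -1.77 ± 0.51 (adjusted p = 0.0363), PDF1.2a -1.69 ± 0.40 (adjusted p = 0.0122), PDF1.2b -1.67 ± 0.44 (adjusted p = 0.0239) and PDF1.2c -1.65 ± 0.46 (adjusted p = 0.0306), and the libraries of PDF1.2c and PDF1.3 overlapped. VSP1 (0.25 ± 0.35, adjusted p = 0.749), VSP2 (0.34 ± 0.34, adjusted p = 0.624), CLH1 (0.41 ± 0.20, adjusted p = 0.254) and TAT3 (-2.03 ± 0.81, adjusted p = 0.137) were not called. In eil3 PDF1.2a was lower, with -1.37 ± 0.39 (adjusted p = 0.0395), where 4.66% of loci were, PDF1.2b (-1.43 ± 0.44, adjusted p = 0.0513) and PDF1.2c (-1.42 ± 0.46, adjusted p = 0.0616) missed the threshold, and TAT3 had -2.36 ± 0.82 (adjusted p = 0.0889). In eil1 0 of 8 genes were called, where 1.26% of loci were called in either direction, 6 of 8 had an unadjusted p under 0.05 and DESeq2 called 0. VSP1 in eil1 stood at 1.19 ± 0.35 (adjusted p = 0.0949), on the higher side of Col-0.

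These full-sulfate calls changed with the groups in the fit and with single libraries. Fitted on the 2 groups alone, 0 genes were called in eil3 eil1 (adjusted p between 0.0763 and 0.124 for the defensins) and 0 in eil3. Each defensin call in eil3 eil1 was lost without Col-0 +S replicate 1 or eil3 eil1 +S replicate 2, with adjusted p up to 0.0763 for PDF1.2a, 0.123 for PDF1.2b, 0.138 for PDF1.2c and 0.224 for PDF1.3. The calls of PDF1.2b and PDF1.2c were also lost without Col-0 replicate 2, and those of PDF1.2c and PDF1.3 without eil3 eil1 replicate 3. The PDF1.2a call in eil3 was lost without Col-0 replicate 1 or 2 or eil3 replicate 1 or 2 (adjusted p up to 0.185). Without Col-0 replicate 3 PDF1.2b (adjusted p = 0.0241) and PDF1.2c (adjusted p = 0.0224) were called in eil3, PDF1.2c also without eil3 replicate 3 (adjusted p = 0.0351), and TAT3 was called without Col-0 replicate 2 (-2.82, adjusted p = 0.0378).

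**Figure D3:**
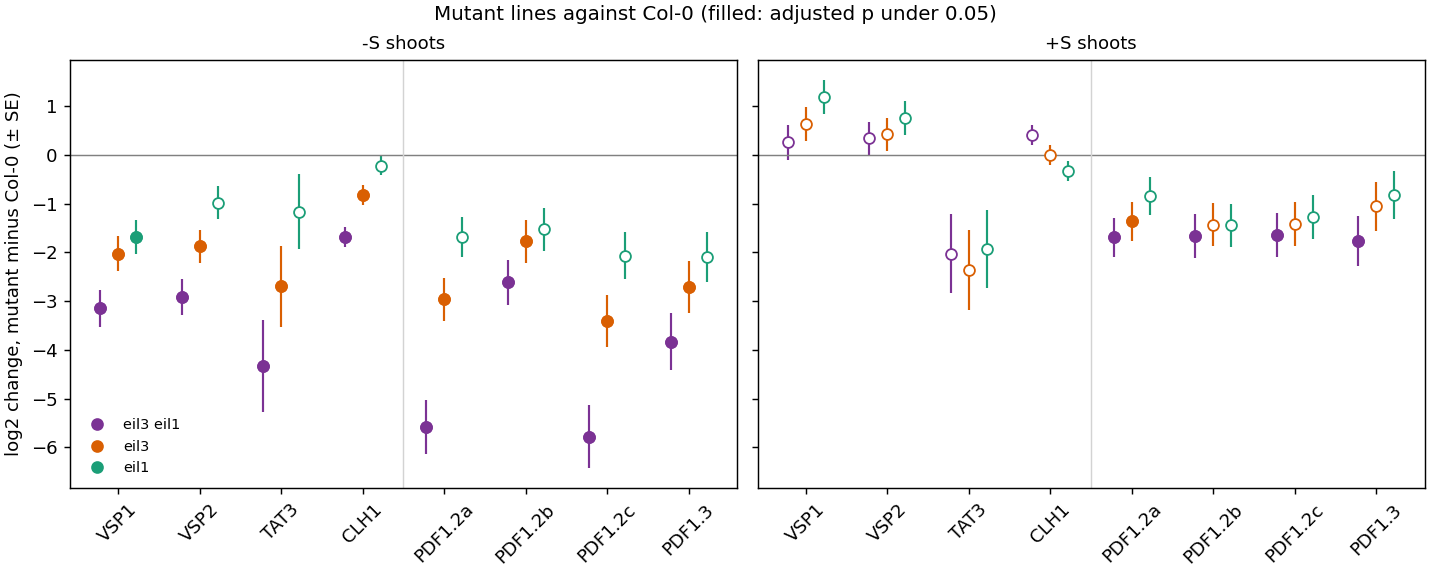
Log2 difference of each mutant genotype from Col-0 (± SE) in -S shoots (left) and +S shoots (right), with filled points for adjusted p under 0.05. At -S all 8 genes are filled in eil3 eil1 and in eil3, and at +S the filled points are the 4 defensins in eil3 eil1 and PDF1.2a in eil3.

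The lines with 1 and with 2 insertions were also compared directly. At low sulfate eil3 eil1 was below eil3 for 5 of 8 genes, where 17.0% of loci were, PDF1.2a with -2.61 ± 0.60 (adjusted p = 0.00173), PDF1.2c with -2.37 ± 0.76 (adjusted p = 0.0171), VSP1 with -1.12 ± 0.38 (adjusted p = 0.0228), VSP2 with -1.04 ± 0.36 (adjusted p = 0.0273) and CLH1 with -0.85 ± 0.21 (adjusted p = 0.00245). It was below eil1 for 7 of 8, where 26.7% of loci were, PDF1.2a with -3.88 ± 0.56 (adjusted p = 6.8e-06) and CLH1 with -1.46 ± 0.21 (adjusted p = 4.78e-06) among them, and PDF1.2b was not called (-1.09 ± 0.46, adjusted p = 0.0529). At full sulfate neither comparison called a gene. Against eil3, where 0.0553% of loci were called in either direction, 0 of 8 had an unadjusted p under 0.05 and DESeq2 called 0. Against eil1, where 1.12% of loci were called, 3 of 8 had an unadjusted p under 0.05 and DESeq2 called 1. At low sulfate the calls against eil3 were lost without eil3 replicate 2 or eil3 eil1 replicate 3 for VSP1 (adjusted p up to 0.102), without eil3 replicate 2 or 3 or eil3 eil1 replicate 1 or 3 for VSP2 (up to 0.111), and without eil3 replicate 1 or eil3 eil1 replicate 1 or 3 for PDF1.2c (up to 0.066), and PDF1.3 was called without eil3 eil1 replicate 2 (adjusted p = 0.0463). Against eil1 the PDF1.3 call was lost without eil1 replicate 3 or eil3 eil1 replicate 1 or 3 (adjusted p up to 0.0797).

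The branches were also set against each other per kilobase of the effective length in the table, which for a short target such as PDF1.2b is well under the target length (162 against 348 bases), so the balance and the order of genes hold for that length only. The summed level of the 4 MYC-branch genes and that of the 4 defensins was 33.5 ± 8.78 and 20.02 ± 3.68 CPM per kilobase in -S shoots of eil3 eil1, against 79.9 ± 5.10 and 87.6 ± 44.3 at +S (SD, n = 3 each). In eil3 the sums were 63.8 ± 0.211 and 47.2 ± 15.99 at -S, against 73.1 ± 9.32 and 113 ± 26.6 at +S. In eil1 they were 101 ± 28.1 and 76.3 ± 9.76 at -S, against 79.6 ± 21.5 and 140 ± 53.9 at +S. At +S the eil3 eil1 libraries differed in which sum was larger, with 85.1, 74.9 and 79.7 CPM per kilobase for the MYC branch and 135, 46.9 and 81.2 for the defensins. In Col-0 the sums were 162 ± 24.5 and 258 ± 136 at -S, against 67.8 ± 13.98 and 284 ± 133 at +S. The defensin share of both sums was 37.9 ± 5.68% at -S and 50.1 ± 11.4% at +S in eil3 eil1, and 58.6 ± 15.2% at -S and 77.7 ± 13.6% at +S in Col-0. These sums are descriptions without a test.

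Single genes on the same scale are given without an order. In -S shoots of eil3 eil1 CLH1 had a mean of 23.2 CPM per kilobase of effective length and PDF1.2b 13.9, while PDF1.2a had 1.73 and PDF1.2c 0.56. In -S shoots of Col-0 PDF1.2b had 85.4, PDF1.2a 84.7 and CLH1 74.2, and in +S shoots of Col-0 PDF1.2a had 121.

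**Figure D4:**
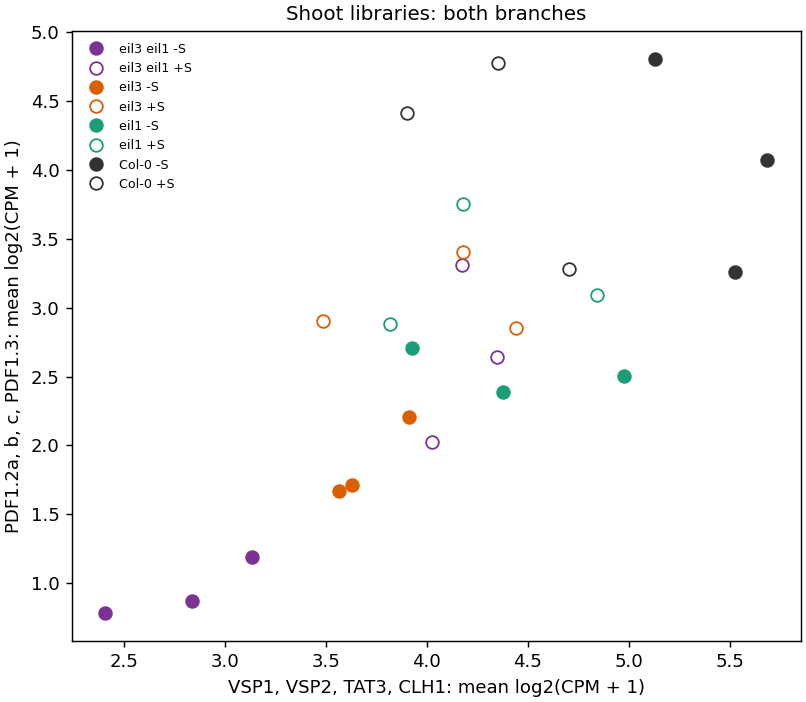
Each shoot library by the mean log2(CPM + 1) of VSP1, VSP2, TAT3 and CLH1 (x axis) and of the 4 defensins (y axis), filled for -S and open for +S. The -S libraries of eil3 eil1 have group means of 2.79 and 0.95 and those of Col-0 5.45 and 4.05, while the +S groups lie between 4.04 and 4.32 on the x axis.

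The order of the group means differed between VSP2 and PDF1.2a, and it differed within each branch too. VSP2 was highest in -S Col-0 shoots with 69.9 CPM, followed by +S eil1 (43.2), -S eil1 (35.4), +S eil3 (34.4), +S eil3 eil1 (32.4), +S Col-0 (25.6), -S eil3 (19.0) and -S eil3 eil1 (9.27). Neighbours in that order overlapped except for the last 2 steps, from +S Col-0 down to -S eil3 and on to -S eil3 eil1. PDF1.2a was highest in +S Col-0 with 38.2 CPM, followed by -S Col-0 (26.8), +S eil1 (21.4), +S eil3 (14.9), +S eil3 eil1 (11.8), -S eil1 (8.27), -S eil3 (3.41) and -S eil3 eil1 (0.548). Its neighbours also overlapped except for the last 2 steps. Of the other genes, TAT3 was highest in +S Col-0, as PDF1.2a was, and PDF1.2b and PDF1.3 were highest in -S Col-0, as VSP2 was. For TAT3, PDF1.2b and PDF1.3 the other Col-0 group came next and its libraries overlapped, so these top ranks are not firm. Over the 24 shoot libraries log2(CPM + 1) of VSP1 and VSP2 correlated with r = 0.92, and with 0.72 after removing the group means. PDF1.2a correlated with PDF1.2c (0.97 and 0.91), PDF1.3 (0.93 and 0.89) and PDF1.2b (0.75 and 0.84) in the same way. Across the branches VSP2 and PDF1.2a had r = 0.71 over all libraries and 0.03 within groups. CLH1 and PDF1.2a had 0.26 and -0.32. These correlations describe libraries that share groups and organs, and carry no test.

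Other genes of the pathway were read from lists. In Col-0 shoots 8 of 16 MYC factors and other MYC-branch genes were higher at low sulfate and 0 lower, where 3677 of 21697 loci were higher and 3893 lower, with LOX2, a lipoxygenase of jasmonate synthesis, at 3.45 ± 0.22 (adjusted p = 2.4e-10) and AOC2, an allene oxide cyclase, at 3.18 ± 0.22 (adjusted p = 1.76e-09). MYC2 was higher too, with 71.9 ± 12.2 CPM at -S and 47.0 ± 9.55 CPM at +S, 0.62 ± 0.18 (adjusted p = 0.00958). Of 13 receptor and JAZ genes 5 were higher and 1 lower. Of 9 ethylene-branch regulators 1 was higher and 1 lower, ORA59 with 26.2 ± 2.24 CPM at -S and 16.6 ± 1.65 CPM at +S, 0.66 ± 0.16 (adjusted p = 0.00308), and ERF6 with -0.78 ± 0.18 (adjusted p = 0.00201). ERF1 was near 0 at 0.625 CPM at -S and 0.368 CPM at +S and was not called (0.76 ± 0.53, adjusted p = 0.287). Of 10 other defence genes 2 were higher and 2 lower, among which PR4, a chitin-binding protein, had 1.52 ± 0.24 (adjusted p = 4.93e-05) and the defensin PDF2.3 -1.08 ± 0.12 (adjusted p = 9.76e-07). ORA59 and PR4 were thus higher at low sulfate in Col-0 where no member of the PDF1.2 group was called.

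In eil3 eil1 shoots the same lists gave 2 higher and 4 lower of the 16 MYC-branch genes at low sulfate, where 7057 of 21697 loci were higher and 6141 lower. Among those lower was CORI3, which is inducible by coronatine, with -1.79 ± 0.22 (adjusted p = 6.78e-07). MYC2 was not called there (-0.24 ± 0.18, adjusted p = 0.243), and ORA59 was lower, with 8.16 ± 0.574 CPM at -S and 12.1 ± 1.48 CPM at +S, -0.57 ± 0.17 (adjusted p = 0.00598). The response of ORA59 differed from that of Col-0 by -1.23 ± 0.23 (adjusted p = 0.000318), and that of MYC2 by -0.86 ± 0.25 (adjusted p = 0.0101). At low sulfate 14 of 16 MYC-branch genes, 11 of 13 receptor and JAZ genes and 5 of 9 ethylene-branch regulators were lower in eil3 eil1 than in Col-0. Their medians were -1.09, -1.22 and -0.46 beside a median near 0 for all loci, of which 26.1% were lower. Of the receptor and JAZ genes 1 was higher. The 10 other defence genes went both ways, with 4 higher and 5 lower, where 5952 of 21697 loci were higher. There ORA59 differed by -1.68 ± 0.17 (adjusted p = 4.47e-08), MYC2 by -0.99 ± 0.18 (adjusted p = 8.59e-05) and AOC2 by -3.32 ± 0.23 (adjusted p = 2.7e-10). In eil3 12 of 16, 8 of 13 and 1 of 9 were lower, where 8.69% of loci were, and ORA59 had -0.80 ± 0.16 (adjusted p = 0.00195). Of the 10 other defence genes 3 were higher and 2 lower in eil3, where 1921 of 21697 loci were higher. In eil1 2 of 16 MYC-branch genes were lower, where 0.350% of loci were.

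Green tissue markers moved with these groups. All 14 fell at low sulfate in eil3 eil1, eil3 and Col-0 shoots and 9 did in eil1. Their sum was 30609 ± 953 CPM at -S and 91211 ± 7588 CPM at +S in eil3 eil1, 46415 ± 8112 at -S and 102193 ± 11283 at +S in eil3, 70920 ± 5436 at -S and 95772 ± 7178 at +S in eil1, and 60301 ± 5501 CPM at -S and 104459 ± 9555 CPM at +S in Col-0 (SD, n = 3 each). Against -S Col-0 shoots all 14 were lower in -S eil3 eil1 shoots and 10 were lower in -S eil3 shoots. Of 7 root markers tested in shoots 1 was higher and 6 were lower in -S eil3 eil1 than in -S Col-0. The 8 listed summed to 570 ± 12.6 CPM in -S eil3 eil1 and 478 ± 45.1 CPM in -S Col-0 (SD, n = 3 each), and to at most 715 CPM in any shoot library. The part of either list in the results on the 8 genes was not tested. In bulk shoots or roots, fewer cells of a type and less RNA per cell cannot be told apart.

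In roots VSP2 was lower in every mutant genotype than in Col-0, at both sulfate levels, and no gene was called for its response to sulfate. The 3 genes that passed the filter on low counts were VSP1, VSP2 and TAT3, and the low-sulfate response called 0 of 3 in every genotype, where 3.89% of 21954 loci were called in either direction in eil3 eil1, 1.06% in eil3, 1.92% in eil1 and 9.03% in Col-0. At an unadjusted p under 0.05 there were 1 in eil3 eil1 (VSP1), 1 in eil3 (VSP2), 0 in eil1 and 0 in Col-0, and DESeq2 called 0, 1, 0 and 0. The interactions called 0 of 3 as well, where 3.83% of loci were called in eil3 eil1, 0.943% in eil3 and 0.383% in eil1, with 0 at an unadjusted p under 0.05 and 0 by DESeq2 in each.

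VSP2 in eil3 eil1 roots had 153, 113 and 125 CPM in -S roots, against 109, 148 and 168 CPM in +S roots. The eil3 roots had 95.9, 82 and 113 CPM in -S roots, against 156, 133 and 156 CPM in +S roots. The eil1 roots had 121, 126 and 117 CPM in -S roots, against 113, 125 and 172 CPM in +S roots. Every mutant value was below every Col-0 value. Col-0 had 209, 211 and 192 CPM in -S roots, against 242, 247 and 217 CPM in +S roots. At low sulfate VSP2 differed from Col-0 by -0.65 ± 0.15 (adjusted p = 0.00561) in eil3 eil1 (6.01% of loci were lower), by -1.07 ± 0.15 (adjusted p = 7.16e-05) in eil3 (3.37%) and by -0.75 ± 0.15 (adjusted p = 0.00734) in eil1 (1.18%). At full sulfate it differed by -0.74 ± 0.15 (adjusted p = 0.0182) in eil3 eil1 (0.433%), by -0.67 ± 0.15 (adjusted p = 0.0206) in eil3 (1.33%) and by -0.79 ± 0.15 (adjusted p = 0.0118) in eil1 (0.578%). In each of the 6 comparisons VSP2 was the 1 gene of 3 called. The full-sulfate calls were lost without Col-0 replicate 1 or 2 or eil3 eil1 replicate 1 or 2 (adjusted p up to 0.0961), without Col-0 replicate 1 or 2 or eil3 replicate 2 or 3 (up to 0.0839), and without Col-0 replicate 2 or eil1 replicate 1 or 2 (up to 0.0727).

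VSP1, the nearby copy, was not called in roots. The eil3 eil1 libraries had 73, 77 and 93.9 CPM in -S roots, against 47.2, 67.3 and 59.7 CPM in +S roots. In eil3 it had 77.4, 46.2 and 82.7 CPM in -S roots, against 52.3, 60.1 and 67.3 CPM in +S roots, and in eil1 70.6, 58.9 and 45.4 CPM in -S roots, against 56.4, 66.9 and 72.3 CPM in +S roots. Col-0 had 93.7, 85.4 and 74.9 CPM in -S roots, against 81.8, 67.7 and 75.6 CPM in +S roots, and at -S the eil1 libraries were all lower. Against Col-0 the largest difference was that of eil1 at -S, -0.54 ± 0.18 (adjusted p = 0.139). TAT3 in roots ranged between 2.01 and 18.5 CPM over the 24 libraries, with eil3 -S replicate 3 at 17.02 CPM beside 4.30 and 2.01 CPM in its group, and it was not called. Without that eil3 -S root replicate 3 both VSP2 (-0.74, adjusted p = 0.0372) and TAT3 (-2.34, adjusted p = 0.0146) were called as lower at low sulfate in eil3.

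**Figure D5:**
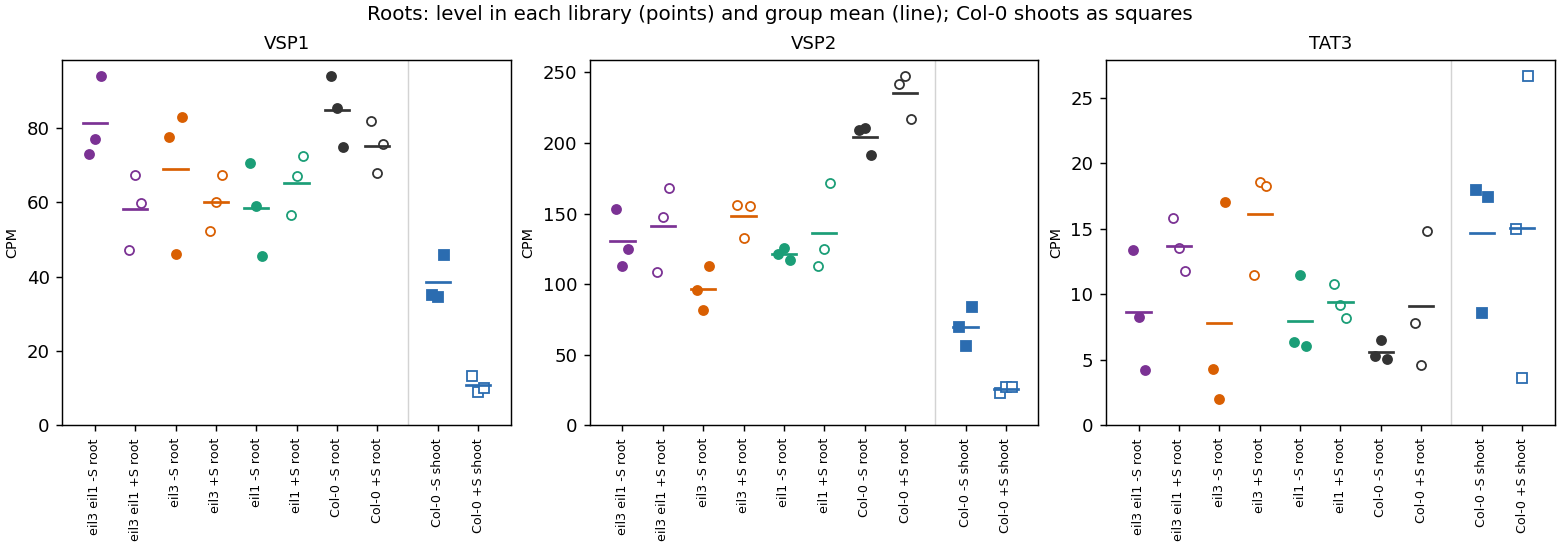
Level (CPM) of VSP1, VSP2 and TAT3 in every root library (circles, filled for -S and open for +S) with the group mean (line), and in Col-0 shoots (squares, right). CPM was scaled within each organ, so root and shoot levels do not share a common scaling. VSP2 lies between 82 and 172 CPM in the mutant roots and between 192 and 247 CPM in Col-0 roots.

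CLH1 and the defensins were close to absent from root libraries. CLH1 had counts in 14 of 24 root libraries, 75 in all, of which 29 were in Col-0 -S replicate 1. In shoots it had 39437. The defensins had a count in 5 of 24 root libraries, all 5 among the 8 numbered 1, and Col-0 -S replicate 1 held 27 of these counts over all 4 genes while no other library held more than 2. Over all root libraries PDF1.2a had 6 counts, PDF1.2b 5, PDF1.2c 9 and PDF1.3 13, against 11759, 4729, 4213 and 6938 in shoots. Col-0 -S root replicate 1 did not have the highest green marker sum of its group, with 1131 CPM beside 1230 and 950 CPM. LOX2, which averaged 2125 CPM in -S Col-0 shoots, had 17.3 CPM in that root library, beside 9.69 and 0.158 CPM in its group and 0 in the 3 Col-0 +S root libraries. Whether leaf material or another source gave these counts was not tested.

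In Col-0, roots held more of both storage proteins than shoots, fitted over 12 libraries and 22301 loci. At low sulfate roots were above shoots by 0.69 ± 0.15 (adjusted p = 0.000741) for VSP1 and 1.09 ± 0.12 (adjusted p = 2.61e-06) for VSP2, where 38.9% of loci were higher, and at full sulfate by 2.35 ± 0.16 (adjusted p = 1.44e-08) and 2.75 ± 0.13 (adjusted p = 4.08e-10), where 40.5% were. The organ difference was the smaller at low sulfate, since the root response minus the shoot response was -1.66 ± 0.21 (adjusted p = 0.000565) for VSP1 and -1.66 ± 0.17 (adjusted p = 0.000233) for VSP2, where 7.25% of loci were lower. TAT3 was lower in roots at low sulfate with -1.83 ± 0.57 (adjusted p = 0.0105), among 37.9% of loci that were lower. CLH1 and the 4 defensins passed the filter of this fit through their shoot libraries, so no count is read from their calls. At full sulfate, where 35.9% of loci were lower, TAT3 had -1.17 ± 0.55 (adjusted p = 0.0702) and was called without Col-0 +S shoot replicate 2 (-1.64, adjusted p = 0.00306) or root replicate 3 (-1.70, adjusted p = 0.0277).

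For CLH1 and the defensins the organ ratio was taken from pooled counts with a 95% Poisson interval, or, where the root count was 0, as a bound at a floor of 3 counts per group. Both cover counting error only. Libraries were scaled within each organ here, so the scaling between organs is not covered. The joint Col-0 fit, scaled over both organs, gave CLH1 larger differences, with log2 -8.25 at low sulfate and -9.71 at full sulfate. At low sulfate CLH1 was 226-fold lower in roots (164 to 319) and at full sulfate 639-fold lower (294 to 1742). Of the 38 root counts of CLH1 at low sulfate 29 were in replicate 1, and without that library it was 613-fold lower (323 to 1341). At low sulfate PDF1.2a was 1257-fold lower (348 to 10382) from 2 root counts, PDF1.2b 322-fold (126 to 1183), PDF1.2c 129-fold (65.6 to 299.6) and PDF1.3 152-fold (89.2 to 286). These low-sulfate defensin ratios rest on Col-0 -S root replicate 1, which held all the counts of the group. Without it PDF1.2a was at least 540-fold lower in roots, PDF1.2b at least 277-fold, PDF1.2c at least 222-fold and PDF1.3 at least 425-fold. At full sulfate PDF1.2b was at least 407-fold lower in roots, PDF1.2c at least 485-fold and PDF1.3 at least 629-fold, and PDF1.2a was 3901-fold lower from 1 count (700.2 to 154092).

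The 5 loci outside the 8 whose log2(CPM + 1) correlated best with VSP2 over the 24 shoot libraries, among 15313 loci with a mean of at least 5 CPM, were MBP2 (r = 0.88), AT1G50020 (0.86), JAL23 (0.86), TSA1 (0.85) and AT2G43530 (0.85). For PDF1.2a they were UBC17 (0.93), GLN1;4 (0.93), YSL3 (0.92), AT2G39000 (0.92) and AT1G33250 (0.92). The nearest loci of VSP2 and PDF1.2a in these short lists were not the same, from which no difference between the branches is read. For VSP2 over the 24 root libraries and 16574 loci they were CYP708A3 (0.89), LSH4 (0.87), AT2G16660 (0.87), LSH10 (0.86) and AT5G50150 (0.81). These values describe likeness over libraries that share groups.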

How the data were processed

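RNA of roots and shoots was sequenced in 48 libraries, 3 in each of 16 groups, after TruSeq stranded mRNA preparation per the labels' protocols. Per the submitters' processing notes the tools were Trimmomatic 0.36, FastQC and kallisto 0.43.1, with TAIR10 as the build. The deposited table holds the authors' estimated counts per transcript target, of which 7.79% were not whole (tolerance 1e-06), and 48 TPM columns that were not used. One target stood for each of 33602 loci, and the estimated counts were rounded to whole numbers. Roots could be tied to samples, while shoot columns were tied only to groups, because titles carried other replicate numbers in 6 of 8 shoot groups. Replicate numbers here are those of the table's columns.

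edgeR 4.0.16 (R 4.3.3) fitted the 24 libraries of an organ together as 8 groups, with TMM factors, filterByExpr and quasi-likelihood F tests, for the sulfate response, the genotype differences and the interactions. The 12 Col-0 libraries were fitted for roots against shoots. The Benjamini-Hochberg adjustment of p-values ran over the 21697 (shoot), 21954 (root) or 22301 (Col-0) loci that passed the filter, threshold 0.05, in 37 comparisons. The SE is the log2 change divided by the root of F. All 8 genes passed in shoots and in Col-0, and VSP1, VSP2 and TAT3 passed in roots. CPM is scaled within an organ and correlations used log2(CPM + 1). Where CPM is given per kilobase, the length is the effective length in the table. The labels do not say whether replicates came from separate plates, and p-values measure the spread between these libraries.

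In simulated counts for the Col-0 shoot comparison a small set of loci above a minimum mean count was changed, with 21463 loci tested. Changes of 1.5-fold, 2-fold and 4-fold were recovered in 67.16%, 85.07% and 98.48% of the changed loci. These rates are not specific to the 8 genes. Alternatives were RLE factors, total counts, no filter, DESeq2 1.42.0, only the groups compared, a replicate block in roots, summed copies and leaving out each library. All 8 members are named. Names from each other list were limited to the called genes with the smallest p, up to 4, with EIL1, ERF1, ORA59 and MYC2. Not all of these genes are named in the text. EIL3 was added to check the labels. The genes, lists and tests were chosen with earlier results of these data known. Sequences and coordinates are from RefSeq (TAIR10.1), where 97.7% of loci matched.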

Additional observations from a re-analysis of the deposited data

Results flagged for a closer look

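The response to low sulfate in shoots differed from that of Col-0 by the interaction test for 9 combinations of gene and genotype. In eil3 eil1 the difference in log2 change was -3.40 for VSP1, -3.26 for VSP2 and -2.09 for CLH1, with all 3 lower at low sulfate in eil3 eil1 and higher in Col-0. It was -3.88 for PDF1.2a, -4.13 for PDF1.2c and -2.06 for PDF1.3, which were lower in eil3 eil1 and not called in Col-0. In eil3 it was -2.66 for VSP1 and -2.30 for VSP2. In eil1 it was -2.89 for VSP1.

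The response of Col-0 roots differed from that of Col-0 shoots by -1.66 for VSP1 and by -1.66 for VSP2, with higher levels at low sulfate in shoots and no call in roots.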

How the results depend on the processing

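Of 103 results on a gene in a comparison, 102 kept direction and side of the threshold with RLE factors, 100 with total counts, 100 with no filter on low counts, 97 with DESeq2 and 92 when a fit held just the groups being compared. None of these reversed. The 103 include the root against shoot results of CLH1 and the defensins, and the 29 below include those of PDF1.2a. These genes passed that filter through shoots and were close to absent from roots, so their calls could hardly change. The number of genes called moved with DESeq2 to 4 of 8 in eil1 against Col-0 at -S in shoots (main value 1), to 2 in eil3 against Col-0 at +S in shoots (1), to 1 in eil3 eil1 against eil1 at +S in shoots (0), to 1 in the eil3 root response (0) and to 2 in eil3 against Col-0 at -S in roots (1). With no filter the numbers were 2 in eil1 at -S in shoots, 2 in eil3 at +S in shoots, 1 in the eil3 root response and 2 in eil3 at -S in roots, and with RLE factors 2 in eil1 at -S in shoots. Fitted on only the groups compared they were 5 in the eil1 shoot response (3), 0 in eil3 and 0 in eil3 eil1 (4) against Col-0 at +S in shoots, and 1 in eil3 eil1 against eil1 at +S in shoots. The cause of these moves was not tested. Summing similar copies (the defensins, and VSP1 with VSP2) kept 27 of 29 results, and ended 2 calls of PDF1.2a, in the eil1 shoot response (-1.03, adjusted p = 0.0721) and in eil3 against Col-0 at +S in shoots (-1.31, adjusted p = 0.0586).

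Without any 1 library, the number of genes called ran between 1 and 4 in the eil1 shoot response (3), 2 and 4 in eil3 (3) and 6 and 7 in eil3 eil1 (7). Against Col-0 in -S shoots it ran between 0 and 1 in eil1 and 6 and 8 in eil3, and in +S shoots between 0 and 3 in eil3 and 0 and 4 in eil3 eil1. It ran between 2 and 6 for eil3 eil1 against eil3 and 6 and 7 against eil1 in -S shoots, between 0 and 2 for the eil1 interaction and 5 and 7 for that of eil3 eil1. In roots it ran between 0 and 2 for the eil3 response, 1 and 2 for eil3 at -S, and 0 and 1 for each mutant at +S, and between 7 and 8 for the +S organ comparison, a count that includes CLH1 and the 4 defensins, which passed its filter through shoots. The change of VSP2 in eil1 shoots, -0.29 and not called, ran between -0.95 without -S replicate 2, where it was called, and 0.0375 without +S replicate 2.

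Scaling by total counts moved the median of all loci and the share of calls that were higher. In the shoot responses the share was 66.9% (main value 53.5%) in eil3 eil1, 84.4% (52.1%) in eil3, 67% (52.8%) in eil1 and 69.95% (48.6%) in Col-0, with medians of 0.19, 0.25, 0.09 and 0.12. Against Col-0 in -S shoots it was 64.02% (51.2%) in eil3 eil1 and 81.2% (50.5%) in eil3, with medians of 0.11 and 0.13, and in +S shoots 65.8% (37.7%) in eil3 eil1, 45.01% (34.7%) in eil3 and 64.5% (32.97%) in eil1. It was 62.2% (50.4%) for eil3 eil1 against eil1 at -S, 66.7% (41.7%) against eil3 at +S and 73.3% (41.97%) for the eil3 interaction, whose median was 0.12. In roots it was 66.05% (50.8%) in eil3 eil1 and 55.8% (39.4%) in eil3 at +S, and 47.99% (60.2%) for the eil3 eil1 interaction. Between organs it was 70.4% (50.6%) at -S, 74.6% (53.1%) at +S and 26.1% (45.2%) for the interaction, with medians of 0.45, 0.61 and -0.12. DESeq2 gave 55.8% for that interaction and 34.3% (20%) for that of eil1, and RLE 23.6% (33.9%) for eil1 at -S in shoots. With total counts CLH1 was called in eil3 (0.52, adjusted p = 0.0407), while PDF1.3 in eil3 (adjusted p = 0.0645) and TAT3 in eil3 eil1 (adjusted p = 0.0547) were not.

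In roots 84 pairs of libraries with the same number had a median correlation of deviations of 0.030, between -0.155 and 0.189, and 18 exceeded 0.1, beside 11 of 168 pairs with other numbers (median -0.012). Same-number pairs exceeded 0.1 more often than the others but most did not, so these values do not settle whether the numbers pair the libraries. The main root fit held no replicate block. With the replicate block 1 gene was called in the eil3 root response, VSP2 with -0.62 (adjusted p = 0.0462), and 7 of 8 results were unchanged. No paired analysis was possible for shoots because their columns could not be tied to the numbers in the titles. With 3 libraries a group 2-fold changes were recovered less often than 4-fold ones in simulated shoot counts.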
